A study of Mus musculus with 2 samples.

Results

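Cells chosen as plasma cells, the antibody-secreting end stage of the B lineage, made up 53 of 18867 cells in 2 droplet single-cell libraries of mouse liver non-parenchymal cells. Of the 53, 2 went against the name, as described below. The 53 cells were chosen on their own transcripts. A cell was kept with at least 300 genes and under 20% of its UMIs (unique molecular identifiers, 1 per captured transcript) in mitochondrially encoded genes. It was then taken as a plasma cell with at least 2 UMIs of Sdc1 (syndecan-1, CD138) and Tnfrsf17 (BCMA) together and at least 5 of Xbp1. No UMI was allowed for Cd3d, Cd3e or Cd3g (T cells), Siglech (plasmacytoid dendritic cells), Cd163l1, or Msln and Upk3b (mesothelium). Levels of Sdc1, Tnfrsf17 and Xbp1 therefore describe the choice and are not findings.

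Non-parenchymal cells were obtained by perfusing the liver and separating cells on a density gradient. Both groups received a methionine- and choline-deficient (MCD) diet for 8 weeks, a diet that produces steatohepatitis. PKM2FL/FL mice carry the floxed allele of the M2 isoform of pyruvate kinase, a glycolytic enzyme, and PKM2ΔMAC mice lack it in macrophages as the group name and the title of the series put it. Each genotype had 1 library, and neither the Cre driver, the age, nor the number of mice behind a library is given in the sources used here. No liver on another diet was analysed here, so every value below belongs to the MCD diet. With 1 library per genotype, the genotype cannot be told apart from the animals, the cell preparation and the library, and the genotypes could not be tested against each other. All intervals below are exact at the 95% level and cover counting error only. The transcripts of Pkm are counted at their 3′ end and over all isoforms, so they do not check the deletion.

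Plasma cells arise when an activated B cell switches on Prdm1 (Blimp-1), Irf4 and Xbp1 and switches off the B cell programme held by Pax5, Ebf1 and Bach2. Xbp1, spliced by the stress sensor Ern1 (IRE1), drives the genes that widen the endoplasmic reticulum (ER), where antibody chains are folded, glycosylated and, when they fail, sent for degradation. Survival depends on the niche, through BCMA and its ligand APRIL (Tnfsf13), and in mucosal tissue the cells home through CCR10 and CCR9 and secrete IgA joined by the J chain. Immunoglobulin heavy and light chain genes were not analysed here, so the class of the antibody is not given.

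In the ER stress response, the factors ATF6 and XBP1 act with NF-Y at the ER stress response element, whose letters are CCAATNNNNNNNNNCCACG. These letters, searched on both strands of the 300-base stretches around the starts of all RefSeq genes (250 bases before the start and 50 after it), were found in 39 of 32851 promoters (0.119%) and in 37 of 27025 genes (0.137%). Among the 19 ER chaperone and folding genes with an entry, 7 (36.8%) held a match, and they were Calr, Canx, Creld2, Dnajc3, Hsp90b1, Hspa5 and Pdia6. Of 12 genes of ER-associated degradation, Derl3 and Syvn1 held one. Neither the 21 translocation and glycosylation genes nor the 18 ER to Golgi transport genes held any. A match describes these letters only. The 250 bases before the start of 4 secretory genes whose values follow below are shown (RefSeq, build GRCm38.p6), because their elements sit at different places in front of genes that plasma cells used heavily. Capitals mark each match, and a match in the opposite orientation reads CGTGG first.
Hspa5, chr2:34771840-34772089, plus strand: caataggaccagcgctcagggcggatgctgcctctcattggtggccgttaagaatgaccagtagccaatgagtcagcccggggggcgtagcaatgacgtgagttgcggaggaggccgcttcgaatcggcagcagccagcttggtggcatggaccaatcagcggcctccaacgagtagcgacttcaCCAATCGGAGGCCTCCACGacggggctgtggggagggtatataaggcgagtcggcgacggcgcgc
Hsp90b1, chr10:86705445-86705694, minus strand: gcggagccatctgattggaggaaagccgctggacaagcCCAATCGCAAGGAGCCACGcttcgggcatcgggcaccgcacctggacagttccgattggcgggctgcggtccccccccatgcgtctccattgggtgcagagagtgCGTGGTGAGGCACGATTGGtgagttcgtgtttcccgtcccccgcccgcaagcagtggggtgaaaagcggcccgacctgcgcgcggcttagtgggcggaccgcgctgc
Derl3, chr10:75893148-75893397, plus strand: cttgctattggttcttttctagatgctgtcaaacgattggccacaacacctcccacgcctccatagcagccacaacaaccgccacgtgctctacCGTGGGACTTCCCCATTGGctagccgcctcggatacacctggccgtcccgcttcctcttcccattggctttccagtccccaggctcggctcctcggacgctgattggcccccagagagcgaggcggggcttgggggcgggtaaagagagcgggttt
Creld2, chr15:88819396-88819645, plus strand: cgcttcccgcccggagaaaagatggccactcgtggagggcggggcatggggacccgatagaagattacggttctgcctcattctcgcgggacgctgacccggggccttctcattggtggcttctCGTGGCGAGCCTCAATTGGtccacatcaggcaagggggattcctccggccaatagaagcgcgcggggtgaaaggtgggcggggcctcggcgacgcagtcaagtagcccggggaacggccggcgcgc
The element of Hspa5 ended 47 bases before the start and that of Derl3 138 bases before it. Hsp90b1 held 2 elements in opposite orientations, which ended 194 and 89 bases before the start. Another element, TGACGTGG, was in 222 of the 32851 promoters (0.676%), among them those of Txndc5, Txndc11, Ube2j1, Copb1, Sec24d and Pou2af1.

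Most of the chosen cells carried the plasma cell transcripts that the choice had not used. Jchain, which links antibody units into polymers, was present in every cell but 1, and Mzb1, an ER protein that helps antibody assembly, in all but 2. Those exceptions were 1 cell in each library with 84812 and 65963 UMIs, far above the rest. They held 297 and 346 UMIs of Alb, 1671 and 1959 of Spp1 and 67 and 52 of Epcam, genes of hepatocytes and bile duct cells. Their Mzb1 count was 0, and their Jchain counts were 2 and 0. These cells went against the name and were left out of all levels below, a step taken after their values were seen. The levels rest on 51 cells, 17 from PKM2FL/FL and 34 from PKM2ΔMAC.

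**Figure D1:**
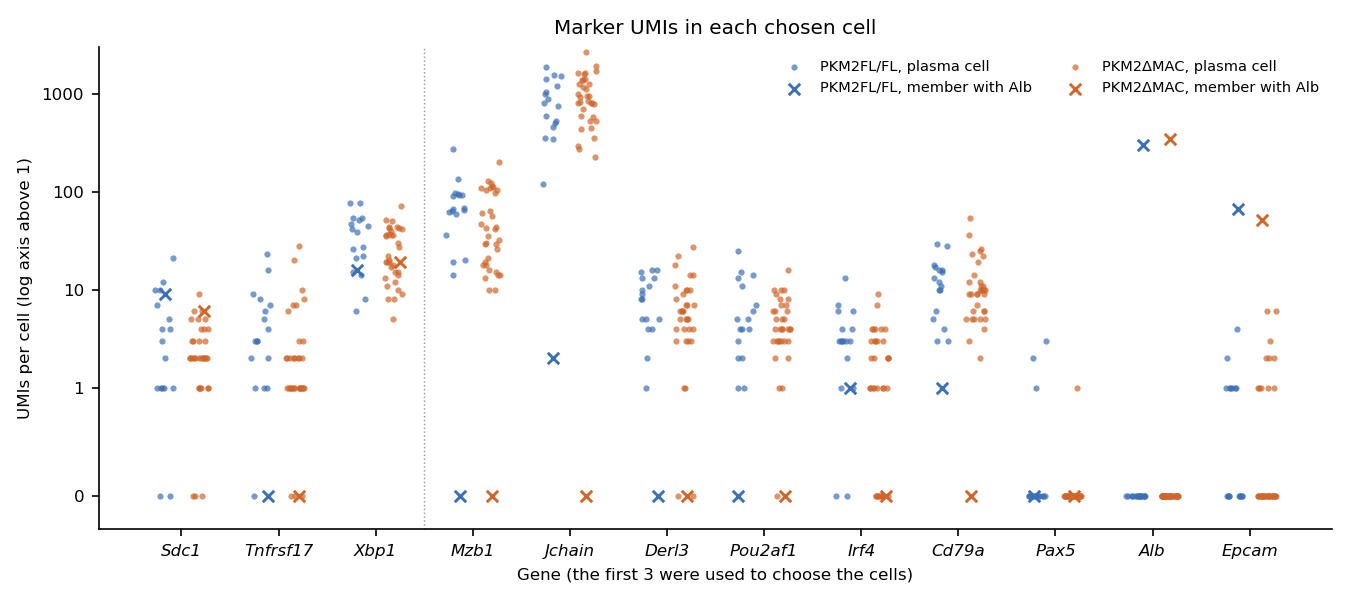
UMIs per cell (vertical axis, log above 1) of 12 genes in each chosen cell of the PKM2FL/FL (blue) and PKM2ΔMAC (orange) libraries; points are plasma cells and crosses the members with Alb. Jchain ran from 119 to 1875 UMIs in the 17 PKM2FL/FL cells and from 228 to 2687 in the 34 PKM2ΔMAC cells, while the crosses lie at 2 and 0.

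Most markers of other cells were low in the 51 plasma cells. Cd3d, Cd3e and Cd3g were barred by the choice, and Cd4, Alb, Apoa1, Fabp1, C1qa and Clec4f were also at 0 in both libraries. The 9 monocyte and macrophage markers summed to 13 and 6 UMIs, the 7 hepatocyte markers to 6 and 22, and the 6 neutrophil markers to 23 and 54, in PKM2FL/FL and PKM2ΔMAC. The 8 T and NK cell markers that could be matched summed to 10 and 49 UMIs, of which 27 were in 1 PKM2ΔMAC cell with 20 UMIs of Gzma. The 8 endothelial and stromal markers summed to 18 and 26 UMIs, of which 18 and 20 were Pecam1. The 6 dendritic cell markers were not low, with 110 and 126 UMIs (428 and 363 CPM, against 72.2 and 77.9 in B cells). Of these, 87 and 119 were Bst2 (tetherin), which is also induced by interferon and known from plasma cells, and the median cell held 4 and 3.5. Siglech, barred by the choice, Xcr1 and Cd209a were at 0. B cells were taken as cells with Cd79a and Cd79b of at least 2 UMIs together and Ms4a1 of at least 1. No UMI of Sdc1, Tnfrsf17, Cd3d, Cd3e, Cd3g or Siglech was allowed in them. These B cells held 8402 and 10704 neutrophil UMIs over 1856 and 1906 cells. Scrublet, a caller of doublets, marked 480 and 328 barcodes (4.80% and 3.69%) and no chosen cell. The libraries shared 17 barcodes, none of them among the chosen cells.

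Plasma cells held more UMIs per cell than the B cells. Part of this is fixed by the choice, whose raw minimums were higher for plasma cells than for B cells. The median depth of plasma cells was 11976 UMIs (range 3815 to 29829) in PKM2FL/FL and 8704 (5608 to 28082) in PKM2ΔMAC. It was 3270 and 2815.5 in B cells and 5626 and 5894 in T cells. In plasma cells the median number of genes was 3227 and 2388.5, and the mitochondrial share 2.47% and 3.03%. The whole libraries held 54519921 and 43134027 UMIs over 10054 and 8949 barcodes.

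Just inside the threshold for Sdc1 and Tnfrsf17, with exactly 2 UMIs, were 1 PKM2FL/FL and 8 PKM2ΔMAC cells, which held 119 and 351 to 1614 UMIs of Jchain. Just outside it, with 1 UMI and enough Xbp1, were 4 and 2 cells with median Jchain of 71.5 and 847. With enough Xbp1 but no UMI of Sdc1 or Tnfrsf17 there were 32 and 38 cells. With enough Sdc1 and Tnfrsf17 but fewer than 5 UMIs of Xbp1, cells without any included, there were 19 and 5. All 4 groups had a median Jchain of 0. At the Xbp1 minimum, 1 cell in each library held 5 to 7 UMIs. The genes of other cells alone left out 5 and 11 cells, of which 4 and 10 had at least 100 Jchain UMIs. Outside the choice, 8 and 12 cells had at least 100 UMIs of Jchain and 5 of Mzb1.

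All chosen cells were 0.180% of PKM2FL/FL cells (18 of 9990, interval 0.107 to 0.285%) and 0.394% of PKM2ΔMAC cells (35 of 8877, 0.275 to 0.548%). Without the members with Alb the shares were 0.170% and 0.383%. The share of all chosen cells was thus 2.19 times as large in the PKM2ΔMAC library (1.21 to 4.10), and 2.25 times without the members with Alb. The B cell share was 18.6% and 21.5%, so that the PKM2FL/FL library held 109 B cells for each plasma cell and the PKM2ΔMAC library 56.1. Keeping in the cells left out for genes of other cells gave 23 and 46 cells and a ratio of 2.25. A minimum of 3 UMIs for Sdc1 and Tnfrsf17 gave 17 and 27 cells and a ratio of 1.79, with an interval from 0.939 to 3.49 that includes equal shares.

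The secretory programme set plasma cells apart from B cells in both libraries. Levels are CPM, the UMIs of a gene in every 1000000 UMIs summed over the class. A gene was compared with at least 20 UMIs and with at least 100 CPM in the higher class, and it was called when it was at least 2-fold apart the same way in both libraries. Of 1830 genes compared, 378 (20.7%) were higher in plasma cells and 327 (17.9%) lower, and the median gene was 0.00 and -0.08 on the log2 scale in PKM2FL/FL and PKM2ΔMAC. Since the cells were chosen on 3 of the same transcripts, these counts are a description.

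Of the 16 plasma cell genes outside the choice, 14 were higher than in B cells, with medians of 4.76 and 5.13 (log2). Jchain reached 57924 CPM in PKM2FL/FL and 97250 in PKM2ΔMAC plasma cells, against 125 and 33.6 in B cells. It alone took a median of 5.44% of a cell's UMIs in PKM2FL/FL (range 0.646 to 18.7%) and 11.2% in PKM2ΔMAC (2.01 to 22.2%), so the ranges overlapped over most of their length. At least 1 Jchain UMI was also seen in 7.74% and 10.7% of T cells, a cell type that should lack it, with median depths of 5626 and 5894 UMIs. Mzb1 stood at 5229 and 5487 CPM, 20.6-fold and 22.7-fold above B cells. Derl3, a channel subunit that passes misfolded proteins out of the ER, was at 564 and 715 CPM against 1.25 and 0.331 in B cells. Fkbp11, a peptidyl-prolyl isomerase of secretory cells, was 56.9-fold and 81.2-fold higher, and Eaf2, an elongation factor partner, 72.8-fold and 129-fold.

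The transcription factors differed in how far they stood apart. Prdm1, the repressor of the B cell programme, was 34.0-fold and 40.3-fold above B cells. Irf4, which B cells also use when activated, was only 2.12-fold and 1.78-fold above them, and the coactivator Pou2af1 2.42-fold and 1.82-fold, so neither met the 2-fold call in both libraries. Prdm1 was detected in 12 of 17 and 18 of 34 plasma cells, with at most 13 and 5 UMIs.

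The folding machinery was higher as a group. Of 23 ER chaperones and folding enzymes, 21 were higher in plasma cells and none lower, with medians of 3.31 and 3.53. Hspa5 (BiP), the ER Hsp70 chaperone whose promoter is shown above, was 5.69-fold and 6.81-fold above B cells. Hsp90b1 (GRP94), the ER Hsp90 chaperone, was 20.1-fold and 19.4-fold higher, at 5568 and 5666 CPM. Creld2, a disulfide isomerase that responds to ER stress, was 24.8-fold and 46.7-fold higher, and Sdf2l1, a partner of BiP, 45.7-fold and 59.5-fold. Canx (calnexin, 1.43-fold and 1.98-fold) and Ero1lb, an oxidase that feeds disulfide formation (1.08-fold and 1.57-fold), were the 2 that did not meet the call. Canx and Hsp90b1 thus differed from each other in their distance from B cells while both promoters hold the element letters.

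All 14 compared genes of ER-associated degradation were higher, with medians of 2.79 and 3.46. Edem1, a lectin that picks out misfolded glycoproteins, was 29.8-fold and 30.6-fold above B cells. Syvn1 (HRD1), the ubiquitin ligase of the pathway, was 2.54-fold and 4.04-fold higher, and its partner Sel1l 9.80-fold and 12.1-fold. Translocation and N-glycosylation genes were higher in 24 of 27 cases (medians 3.05 and 2.68), including Sec61b, a subunit of the translocon, at 10.9-fold and 7.57-fold. ER to Golgi transport genes were higher in 16 of 18 cases, by a smaller median of 2.01 and 2.0. Of the 5 compared genes of unfolded protein response signalling, Xbp1, Atf6 and Creb3l2 were higher, the first by choice. Atf4 (1.45-fold and 1.85-fold) and Ppp1r15a (0.283-fold and 0.682-fold), genes of the translation-arrest branch, were not.

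**Figure D2:**
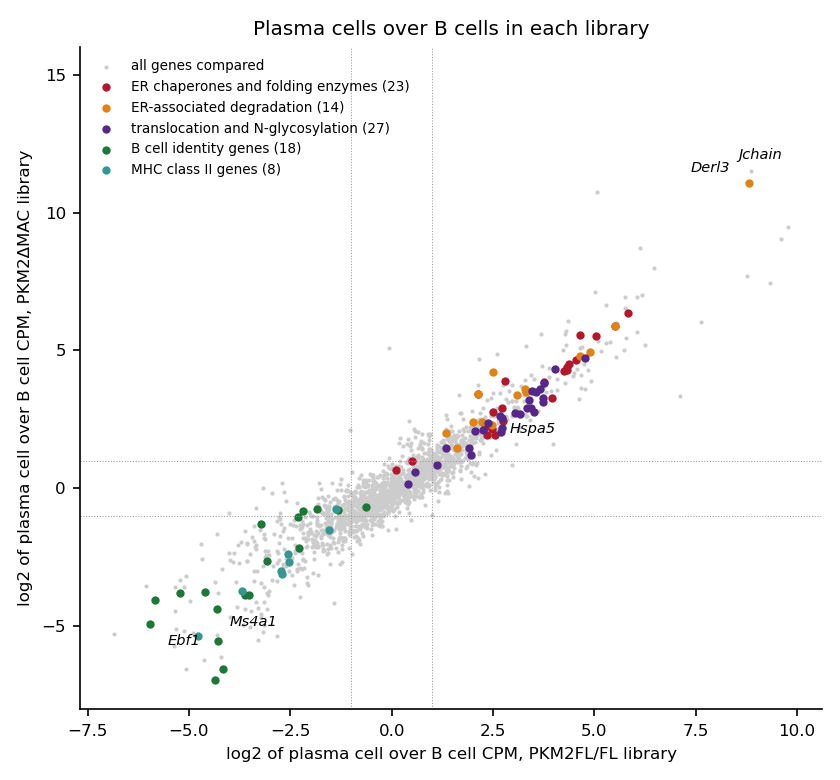
Log2 of plasma cell over B cell CPM in the PKM2FL/FL library (horizontal) and the PKM2ΔMAC library (vertical) for all genes compared (grey) and 5 lists (colours); dotted lines mark 2-fold. ER-associated degradation genes had medians of 2.79 and 3.46, and B cell identity genes of -3.56 and -3.77.

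Most B cell identity genes were low, and the receptor partners were less far below B cells. Of 18 B cell identity genes, 14 were lower in plasma cells and none higher. Ebf1, a founding B cell transcription factor, was 19.5 and 46.0 times lower, Bank1, an adaptor of the B cell receptor, 34.6 and 35.8 times, and Ms4a1 (CD20) 19.9 and 20.7 times. B cells had been chosen on Ms4a1, so its own difference is partly fixed. Cd79a and Cd79b, the signalling chains of the B cell receptor, lay at 0.400 and 0.579 and at 0.650 and 0.633 of the B cell level, although they too were used to choose the B cells. All 7 other compared MHC class II genes were lower, with H2-Aa 13.0 and 13.1 times lower, while Cd74, their invariant chain, kept 0.385 and 0.588 of the B cell level.

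The 15 largest differences over B cells included several genes outside the secretory lists. Besides Jchain, Derl3, Eaf2, Fkbp11 and the 3 choosing genes, they were Cacna1s, a calcium channel subunit, Asns, asparagine synthetase, Dnm3, a dynamin, Ccr10, Plpp5, Selm, Fam46c, and Ube2c, a gene of mitosis. Fam46c, a poly(A) polymerase that stabilises transcripts of secreted proteins, stood at 649 and 726 CPM against 12.0 and 7.79 in B cells. The T cell costimulatory genes Cd28 and Ctla4 were both above B cells. Cd28, also known as a survival receptor of plasma cells, was 22.0-fold and 16.8-fold higher. Ctla4 stood at 346 and 412 CPM against 10.8 and 2.98, and was detected in 15 of 17 and 27 of 34 plasma cells (60.6% and 58.3% at an equal depth of 3500 UMIs), against 18.2% and 12.8% of T cells (13.8% and 9.22% at that depth). No cell with a Cd3 transcript was among the plasma cells, by choice.

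Plasmacytoid dendritic cells, which also hold much Xbp1, formed a stricter comparison. Of 1916 genes, 263 (13.7%) were higher in plasma cells and 405 (21.1%) lower. All 14 degradation genes and 20 of 23 chaperones were again higher, with medians of 2.42 and 2.77 and of 2.54 and 2.47. Translocation genes were higher in 17 of 27 cases and ER to Golgi genes in 10 of 18.

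Plasma cells differed among themselves in the cell cycle. Summed UMIs of 9 mitotic genes (Mki67, Top2a, Birc5, Cdk1, Ccnb1, Ccnb2, Ccna2, Cenpf and Ube2c) were 166, 102, 96 and 30 in 4 PKM2FL/FL cells and 146 and 90 in 2 PKM2ΔMAC cells, and at most 6 and 5 in the others. Cells with at least 20 are called cycling here. They were 4 of 17 and 2 of 34 plasma cells and were deeper than the rest, with a median of 25958 UMIs against 10796 in PKM2FL/FL and 23866 against 8568.5 in PKM2ΔMAC.

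Cycling cells carried less Jchain relative to their RNA. It stood at 19514 CPM in the cycling and 84577 in the other PKM2FL/FL cells, and at 29938 and 107987 in PKM2ΔMAC. Cell by cell, Jchain was 1.17 to 2.68% of UMIs in the 4 cycling PKM2FL/FL cells and 2.86 and 3.09% in the PKM2ΔMAC pair. The other cells ran from 0.646 to 18.7% and from 2.01 to 22.2%, so both groups overlapped with the low end. Among 1737 genes, 161 (9.27%) were at least 2-fold higher in cycling cells of both libraries and 52 (2.99%) lower, around a median gene of 0.21 in both. Of 16 cell cycle genes compared, 15 were higher. The 9 mitotic genes named above were used to choose the cycling cells, so the values of those among the 16 were partly fixed. The rest of the 16 were not used in the choice.

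Outside the cell cycle, early response genes were low in the cycling cells. Of 14 immediate early and heat shock genes, 7 were lower in the cycling cells (medians -1.64 and -1.79). Fos, a subunit of the AP-1 factor, stood at 152 CPM against 2298 in PKM2FL/FL and at 147 against 2042 in PKM2ΔMAC. In PKM2FL/FL, 184 and 102 UMIs of the other cells came from 2 of them, and the median cell held 80.3 CPM among cycling and 546 among other cells (147 and 750 in PKM2ΔMAC). Of 8 glycolysis genes, Pkm, Eno1 and Tpi1 were higher. Pkm stood at 617 against 224 CPM and at 398 against 170. None of 23 chaperones was at least 2-fold apart the same way in both libraries.

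**Figure D3:**
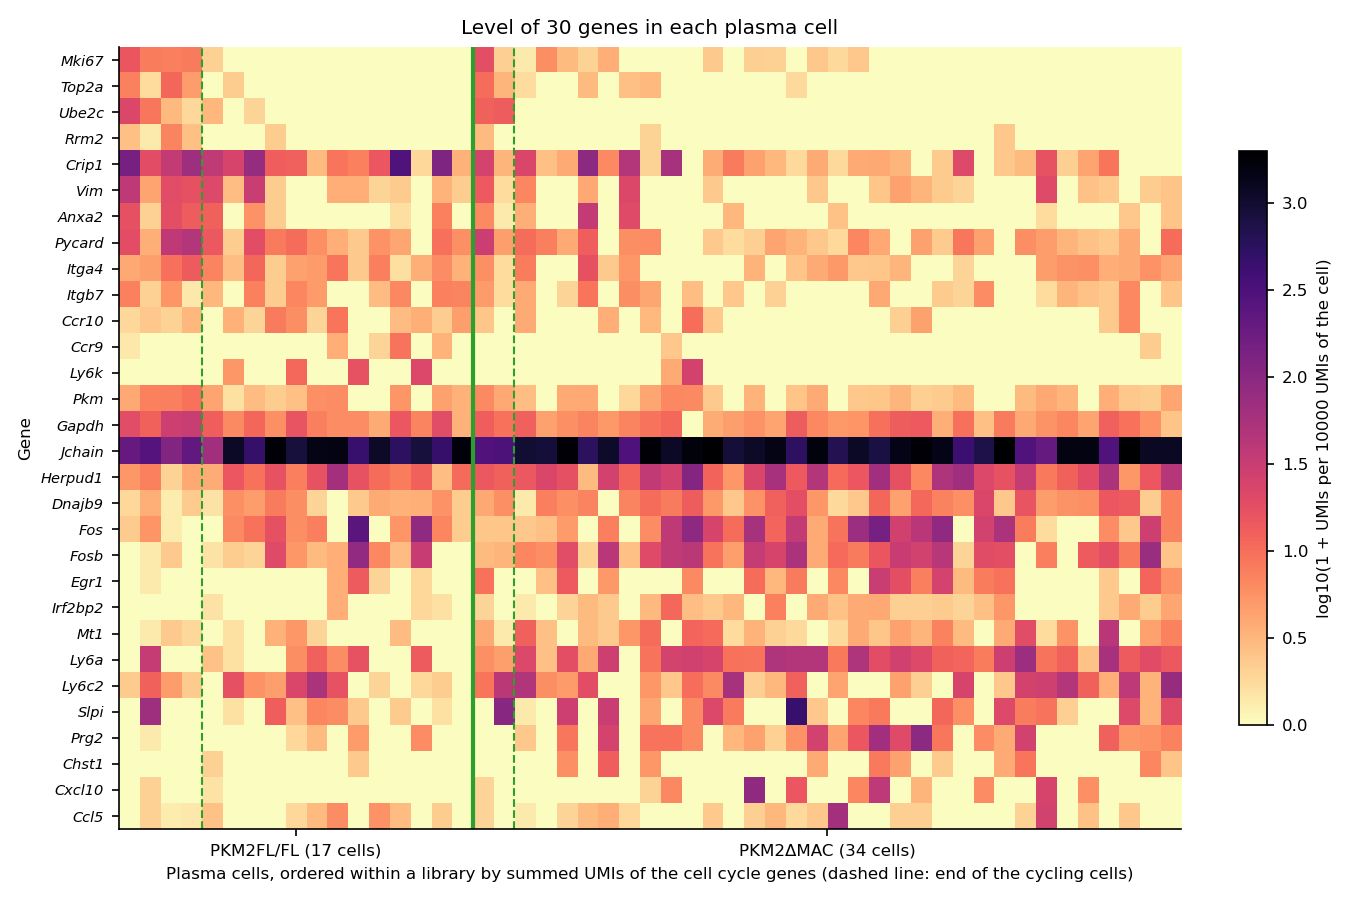
Level of selected genes (rows) in each plasma cell (columns), as log10 of 1 plus UMIs per 10000 UMIs of the cell, darker being higher; the solid line parts the 17 PKM2FL/FL cells from the 34 PKM2ΔMAC cells and dashed lines end the 4 and 2 cycling cells. All 8 cells with at least 20 Vim UMIs also held 20 of Crip1, which reached 20 UMIs in 9 of 17 and 7 of 34 cells, and the Crip1 cell with 471 UMIs held 2 of Vim. Ly6a was seen in 8 of 17 and 33 of 34 cells, Prg2 in 5 and 24, and Mt1 in 8 and 28.

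Vim (vimentin, an intermediate filament) marked a set of cells that overlapped the cycling ones. It had at least 20 UMIs in 5 of 17 PKM2FL/FL and 3 of 34 PKM2ΔMAC plasma cells, of which 3 and 1 were cycling. This minimum is a raw count, and the part of depth in it was not tested. The cells held 10796 to 29829 UMIs in PKM2FL/FL and 11784 to 20475 in PKM2ΔMAC, against plasma cell medians of 11976 and 8704. All 8 also held at least 20 UMIs of Crip1, a small zinc-binding protein. Anxa2, a membrane-binding annexin, reached at least 10 UMIs in 4 and 2 of them. Summed Crip1 stood at 6169 CPM in cycling and 6059 in other PKM2FL/FL cells, but 471 and 209 UMIs of the latter came from 2 cells. The median cell was higher among cycling cells, at 5104 against 1192 CPM in PKM2FL/FL and 1307 against 249 in PKM2ΔMAC. The non-cycling PKM2FL/FL cell of this set with the lowest Jchain count, 119, also held 24 UMIs of H2-Aa and 7 of Ms4a1, both genes of B cells.

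Between the libraries, 1602 genes were compared in plasma cells, and 75 (4.68%) were at least 2-fold higher and 95 (5.93%) at least 2-fold lower in PKM2ΔMAC, together 10.6%. The median gene was at -0.12 on the log2 scale, and at -0.06 without the cycling cells. Of these genes, 72 and 80 were still 2-fold apart without the highest cell of each library, but only 54 and 38 without the cycling cells. With the minimums for comparison applied again, 60 and 59 were still called without the highest cells, and 53 and 29 without the cycling cells. With 1 library per genotype, the 75 and 95 genes are differences between 2 libraries.

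**Figure D4:**
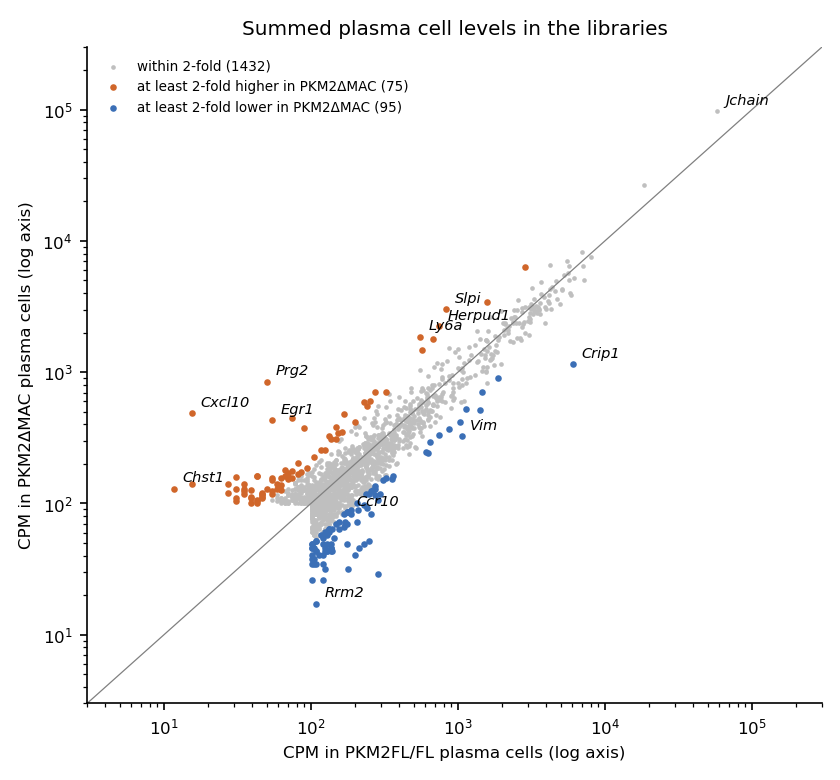
CPM of each gene compared, summed over the 17 PKM2FL/FL plasma cells (horizontal, log axis) and the 34 PKM2ΔMAC plasma cells (vertical, log axis); colours mark genes at least 2-fold apart and the line equal levels. Prg2 and Cxcl10 lie far above the line at 847 and 490 CPM in PKM2ΔMAC, and Crip1 far below it.

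Most identity and secretion genes lay close together in the libraries. Of 16 plasma cell genes, 1 was 2-fold apart (Prg2), and the median was 0.07. The 23 chaperones had a median of 0.03, with Dnajb9 alone called, and the translocation and ER to Golgi genes had none called. Of 14 ER-associated degradation genes, 2 were higher in PKM2ΔMAC and none lower (median 0.12). Of 5 genes of unfolded protein response signalling, 1 was higher and none lower (median 0.23). Over all genes compared, 4.68% were higher. Jchain was 1.68 times as high in PKM2ΔMAC (1.65 to 1.71), which is 0.75 on the log2 scale, and 0.35 without the cycling cells. Hspa5 (ratio 0.943), Hsp90b1 (1.02) and Mzb1 (1.05) stood nearly level.

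A few genes of the ER stress response were exceptions. Herpud1 (chr8:94386438-94395377), which organises the degradation complex, had 192 UMIs in PKM2FL/FL and 777 in PKM2ΔMAC plasma cells. Its CPM was 747 and 2239, a ratio of 3.0 (2.56 to 3.53), and it was seen in every cell of both libraries. Its own-cell level ran from 101 to 6029 CPM in PKM2FL/FL and from 198 to 10877 in PKM2ΔMAC, with medians of 834 and 1606, so the groups overlapped widely. Dnajb9, a BiP cochaperone, had a ratio of 2.58 (1.92 to 3.50), Ppp1r15a (GADD34), which restores translation, 2.14 and Slc3a2, a chain of amino acid transporters, 2.20. Without the cycling cells the last 2 were inside the 2-fold limit, at 0.82 and 0.61 on the log2 scale. In B cells of the same libraries Herpud1 and Dnajb9 differed by -0.15 and 0.06 on the log2 scale.

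Of 15 early response genes, 3 were higher in PKM2ΔMAC (Fosb, Egr1 and Dusp1) and none lower. Their median was 0.47, or 0.14 without the cycling cells and 0.26 as a mean of each cell's own CPM. Fosb stood at 568 and 1479 CPM, a ratio of 2.60 (2.16 to 3.15). Its log2 ratio of 1.38 went to 0.86 without the cycling cells, which held little of it, to 0.87 as a mean of each cell's own CPM and to 0.40 with the members with Alb counted in, all inside the 2-fold limit. Egr1 had 14 and 150 UMIs, but the 2 members with Alb held 382 and 264, and with them counted in its log2 ratio was -0.21 rather than 2.99. Fos was within 2-fold (ratio 1.26) and at -0.17 on the log2 scale without the cycling cells, and 184 of its 365 PKM2FL/FL UMIs came from 1 cell. Early response genes also respond to cell dissociation, and the part of the preparation in these values was not tested.

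Several of the highest ratios rested on a few cells. Cxcl10 (chr5:92346638-92348889), an interferon-induced chemokine that attracts CXCR3-bearing cells, had 4 UMIs in PKM2FL/FL and 170 in PKM2ΔMAC, a ratio of 31.5 (12.1 to 117). Of the 170 UMIs, 76, 31, 26 and 18 came from 4 cells, the one with 31 being the cell with Gzma. It was seen in 2 of 17 and 11 of 34 plasma cells (3.06% and 26.5% at 3500 UMIs), against 10.6% and 7.74% of T cells (7.78% and 5.70%), so at 3500 UMIs its PKM2FL/FL share was no higher than that of T cells. In all cells other than the chosen ones Cxcl10 stood at 102 and 85.8 CPM. Ccl5, another chemokine, had 23 and 130 UMIs, of which 75 and 35 in PKM2ΔMAC came from 2 cells, the second being the cell with Gzma, and its log2 ratio went from 2.07 to 0.87 with each cell thinned to 2000 UMIs. Slpi, a protease inhibitor, had 215 and 1042 UMIs, with 190 in 1 PKM2FL/FL cell and 589 and 285 in 2 PKM2ΔMAC cells.

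Prg2, Ly6a and Mt1 were spread over more cells. Prg2 (chr2:84980461-84983632), the major basic protein of eosinophils and also known from plasma cells, had 13 UMIs in 5 of 17 PKM2FL/FL cells and 294 in 24 of 34 PKM2ΔMAC cells. The ratio was 16.8 (9.65 to 31.9), the highest cell held 6 and 85 UMIs, and the groups overlapped at their low ends. At 3500 UMIs the share of cells was 15.9% and 61.6%, against 0 of 2273 and 4 of 1796 T cells. The cycling cells held 1 of the 13 UMIs in PKM2FL/FL and 0 of the 294 in PKM2ΔMAC, and the log2 ratio without cycling cells was 3.64. Chst1, a sulfotransferase, had 3 and 45 UMIs, a ratio of 11.1 (3.57 to 55.9), in 2 and 11 cells and in no T cell.

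Ly6a (Sca-1, chr15:74994877-74998031), a surface protein induced by interferon, had 143 and 647 UMIs. It was seen in 8 of 17 and 33 of 34 plasma cells (38.4% and 91.9% at 3500 UMIs), against 37.0% and 26.6% of T cells (29.2% and 19.2%). Its share was also larger in PKM2ΔMAC in B cells (35.5% and 44.8%, or 32.4% and 51.4% at 3500 UMIs) and in plasmacytoid dendritic cells (71.7% and 85.3%, or 59.0% and 76.5%). At 3500 UMIs the B cell values rest on only the 691 of 1856 and 372 of 1906 cells that were deep enough. For plasmacytoid dendritic cells these were 128 of 138 and 205 of 224. The ratio was 3.35 (2.79 to 4.05), with 92 of the 143 UMIs in 1 PKM2FL/FL cell, and without the highest cell of each library the log2 ratio went from 1.75 to 2.94. The median cell held 0 UMIs in PKM2FL/FL and 12 in PKM2ΔMAC. Of the other interferon response genes compared, Ifi27l2a was lower (ratio 0.468) and 4 were within 2-fold. In PKM2FL/FL, 126 of the 290 Ifi27l2a UMIs were in 1 cell, and without the highest cell of each library its log2 ratio went from -1.10 to -0.53, inside the 2-fold limit. Mt1, a metallothionein that binds zinc, had 19 and 155 UMIs in 8 and 28 cells, a ratio of 6.05 (3.74 to 10.3), and in T cells of these libraries it differed by -0.35 on the log2 scale. The members with Alb held 60 and 27 UMIs of it, and with them counted in its log2 ratio was 0.93 rather than 2.60, inside the 2-fold limit.

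Cell cycle genes were the lower group, 9 of 10 (median -1.27). Without the 6 cycling cells, 4 of 17 and 2 of 34, the median was 0.37. These cells were chosen for high counts of mitotic genes, so this change was partly fixed in advance. Rrm2, which makes DNA precursors, had 28 UMIs in PKM2FL/FL and 6 in PKM2ΔMAC plasma cells and went from -2.65 to 0.02. No cell outside the cycling ones held more than 1 UMI of Rrm2, and the value of 0.02 rests on fewer than 20 UMIs. Vim (ratio 0.306) went from -1.71 to -1.0 on the log2 scale, and Anxa2 (0.384) from -1.38 to -0.09.

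Crip1 was the abundant gene that stayed apart. Crip1 (chr12:113146316-113153879, beside the heavy chain locus) had 1570 UMIs in 17 PKM2FL/FL cells and 398 in 34 PKM2ΔMAC cells, at 6104 and 1147 CPM. The ratio was 0.188 (0.168 to 0.210), and -2.40 on the log2 scale without the cycling cells. The latter value still includes 2 PKM2FL/FL cells with 471 and 209 UMIs, and their part in it was not tested. The median cell held 38 and 2 UMIs and the highest 471 and 96, so PKM2FL/FL cells were higher at the median while the ranges overlapped. In B cells and T cells Crip1 differed by -0.29 and 0.92. Ncapg2, a condensin subunit (46 and 11 UMIs), and Uck2, a uridine kinase (51 and 14), were also lower with (0.177 and 0.204) and without the cycling cells (-2.33 and -1.98, log2).

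The glycolysis genes lay mostly on the lower side in PKM2ΔMAC. Of 8 compared, Gapdh (ratio 0.480) and Eno1 (0.337) were called, and the median was -0.71, or -0.46 without the cycling cells. Gapdh, at -1.06 on the log2 scale, went inside the 2-fold limit without the cycling cells (-0.53), with the members with Alb (-0.80), as a mean of each cell's own CPM (-0.89), with thinned cells (-0.89) and without each library's highest cell (-0.96). Pkm itself had 99 UMIs in 14 of 17 PKM2FL/FL cells and 70 in 26 of 34 PKM2ΔMAC cells, a ratio of 0.524 (0.380 to 0.719). Without cycling cells its log2 ratio was -0.39, and in B cells and T cells of the same libraries it was -0.54 and -0.52. The 11 mitochondrially encoded genes were all on the higher side, by 0.07 to 1.03 on the log2 scale with a median of 0.60 (B cells -0.13), and mt-Nd4l alone was called (0.74 as a mean of each cell's own CPM). Of these, mt-Co2 turned to -0.05 without the cycling cells and mt-Nd5 to -0.01 as a mean of each cell's own CPM. The 30 nuclear genes of the respiratory chain had none called and a median of -0.25.

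**Figure D5:**
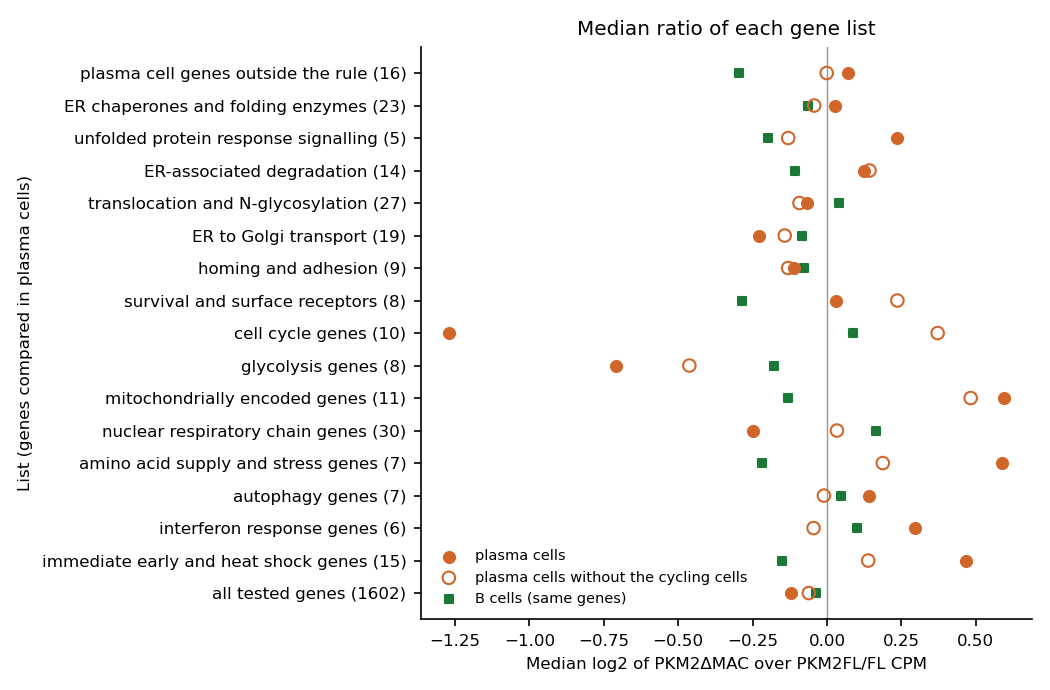
Median log2 ratio of PKM2ΔMAC over PKM2FL/FL CPM for each gene list (vertical axis, number of genes compared in brackets) in plasma cells (filled circles), plasma cells without the cycling cells (open circles) and B cells (squares). Cell cycle genes lie at -1.27 with and at 0.37 without the cycling cells, and mitochondrially encoded genes at 0.60 and 0.48.

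Of 9 homing and adhesion genes compared, Ly6c2 was higher and Ccr10 lower in PKM2ΔMAC, and the median was -0.11. Ccr10, the receptor for CCL27 and CCL28, had 46 UMIs in 14 of 17 PKM2FL/FL cells and 30 in 10 of 34 PKM2ΔMAC cells, a ratio of 0.483 (0.295 to 0.782). Its log2 ratio was -1.05, but -0.89 with the members with Alb counted in and -0.99 with Jchain left out of the total, both inside the 2-fold limit. At 3500 UMIs the share of cells was 47.1% and 18.9%, against 0.599% and 0.548% of T cells (82.4% and 29.4% against 0.792% and 0.835% at full depth). Itga4 and Itgb7, the chains of the gut-homing integrin, had ratios of 0.503 (0.381 to 0.662) and 0.515 (0.361 to 0.731), just inside the 2-fold limit, and Itga4 was at -0.08 on the log2 scale with each cell thinned to 2000 UMIs. Ccr9 had 20 and 2 UMIs, 13 of them in 1 cell, and was too low to be compared. Ly6c2, a surface antigen of some plasma cells, was higher in PKM2ΔMAC (ratio 2.62, 2.21 to 3.12), which is 1.39 on the log2 scale, but 0.81 as a mean of each cell's own CPM and 0.62 with each cell thinned to 2000 UMIs.

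None of the 8 survival and surface receptors compared was 2-fold apart. Tnfrsf13b (TACI), a receptor for APRIL and BAFF, had a ratio of 0.835 and Mcl1, the survival factor downstream of BCMA, of 1.08. Of their ligands in all other cells, Tnfsf13 had 3 and 2 UMIs and Tnfsf13b (BAFF) 131 and 63, over 9972 and 8842 cells. Il6, a plasma cell growth factor, had 530 and 334, Cxcl12, the ligand of CXCR4, 58 and 111, and Ccl28 1 and 0. At this depth the source of APRIL and CCL28 in these cells was not detectable.

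Genes were also compared between the libraries in other lymphocytes. Of all 1602 genes compared in plasma cells, 20 (1.25%) were at least 2-fold apart in either direction in B cells, 25 (1.56%) in T cells and 7 (0.437%) the same way in both. Of the 170 genes apart in plasma cells, these counts were 9 (5.29%), 10 (5.88%) and 6 (3.53%). In the direction seen in plasma cells, 12 (0.749%) of the 1602 were 2-fold apart in B cells, 12 in T cells and 5 (0.312%) in both. Of the 170 genes, 5 (2.94%) were so in B cells, 5 in T cells and 4 (2.35%) in both. Chosen after their values were seen, these 4 were Erdr1, H1f0, Ly6k and Gm42418. H1f0, a linker histone, had a ratio of 0.209 in plasma cells and differed by -2.68 in B cells and -2.01 in T cells on the log2 scale. Apobec3, a cytidine deaminase, had a ratio of 3.77 in plasma cells and differed by 2.90 in B cells and 0.98 in T cells.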

How the data were processed

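The authors' counts come from Cell Ranger (6.0.0, per the file headers) on mm10 per the submitters' processing notes, which also name Seurat 4.3.0. The deposited matrices hold raw UMI counts for 27998 genes, without immunoglobulin chain genes. Those and any result on antibody class or variable genes are not analysed here. The kit version is not settled by the labels' protocols. Members, gene lists and thresholds were chosen with earlier results of these data known. Cells were kept with at least 300 genes and under 20% mitochondrial UMIs. T cells had at least 2 UMIs of Cd3d, Cd3e and Cd3g together and none of Cd79a, Ms4a1, Sdc1, Tnfrsf17 or Siglech. Plasmacytoid dendritic cells had at least 3 UMIs each of Siglech and Bst2 and none of Ms4a1, Cd3d, Cd3e or Cd3g. They had fewer than 2 UMIs of Sdc1 and Tnfrsf17 together. Counts were summed over members per library and divided by all UMIs (CPM). The share used all 53 members, the levels 51, since 2 members with at least 10 Alb UMIs were left out after their values were seen. With 1 library per genotype, called means at least 2-fold among genes with at least 20 UMIs and 100 CPM. Shares carry Clopper-Pearson intervals and ratios exact conditional Poisson intervals (95%). Named genes were list members and the 10 highest and 10 lowest library ratios, or the 15 highest and 10 lowest over B cells, with a UMI in at least 5 members and without ribosomal, mitochondrial, Gm and Rik genes. Others were chosen after their values were seen: Slpi, Vim, Anxa2, Apobec3, Gm42418 and Spp1. Detection shares were also given at 3500 UMIs per cell, over the cells with at least that depth. All plasma cells reached it, but not all B, T and plasmacytoid dendritic cells. The code was tested on simulated data. Positions are GENCODE M21 (GRCm38). Scrublet ran in scanpy 1.11.5, and intervals came from scipy 1.17.1 in Python 3.11.15.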

Additional observations from a re-analysis of the deposited data

How the results depend on the processing

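The share ratio stayed between 1.79 and 2.25 in 9 alternatives, against 2.19. Among 47 values of the main counts and shares, 42 stayed within 1.5 times or within counting error. For gene counts this compares their number only, not which genes were called. The setting with CPM over all UMIs repeats the main one, and Scrublet marked no chosen cell. Gene counts under these 2 settings could therefore not move. Without a filter beyond 1 UMI, 1006 genes were higher and 1378 lower in PKM2ΔMAC (75 and 95 with it), and 1400 higher and 1117 lower than in B cells (378 and 327), since many more genes are then compared. Thinning each cell to 2000 UMIs left 51 genes higher in PKM2ΔMAC, of which 19 were among the 75. It left 43 genes lower, of which 12 were among the 95. Fewer genes met the minimums for comparison after thinning. Of values past 2-fold, signs turned for Rrm2 (0.021) and the median of the cell cycle genes (0.37) without the cycling cells, and for Egr1 (-0.21) with the members with Alb kept in. The cycling cells had been chosen on mitotic genes, and the turned Rrm2 value rests on fewer than 20 UMIs. Of values within 2-fold, 8 values of 6 genes and 11 values of 8 list medians turned, 22 values of 17 results in all. Thinning turned Fos (0.33 to -0.18), Mzb1 (0.07 to -0.07), Irf4 (-0.28 to 0.70), Prdm1 (-0.50 to 0.14) and Ifi30 (-0.60 to 1.0). Leaving out the cycling cells turned Fos (-0.17), Ctla4 (0.25 to -0.17), Ifi30 (1.34) and the median of unfolded protein response signalling (0.23 to -0.13). The other turned medians lay between -0.25 and 0.30 and went to between -0.17 and 0.05. Without the cycling cells 53 of the 75 higher and 29 of the 95 lower genes were still called under the same minimums. The alternatives with the Alb members, without Jchain in the total, without each gene's highest cell and, against B cells, without the cycling cells were chosen after seeing the data. Leaving Jchain out of the total gave 93 higher and 84 lower. No paired analysis was possible because each genotype has 1 library, and for the same reason no replicate could be left out. The immunoglobulin make-up and its alternatives were not run, and a total without immunoglobulin genes is the same as the total used. With 17 and 34 cells, ratios of genes below about 20 UMIs are limited by counting.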
